A study of Mus musculus with 14 samples.

Results

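Transcript levels of 9 scaffold genes of the cardiac sarcomere were followed among 51912 genes counted in mouse heart. They are Ttn (titin), the M-band genes Myom1, Myom2 and Obsl1, and the Z-disc genes Ldb3, Tcap, Myoz2, Nebl and Myot. The genes were chosen by name, but with earlier results of these data known, so the list is no independent evidence. All 9 had a row in each of the 14 count tables, and all 9 were among the 15651 genes that passed the filter on low counts.

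The hearts came from C57BL/6J mice in 4 groups. There were 4 libraries of Clk3 knockout (KO) hearts after TAC at 10 weeks of age and 2 libraries of wild-type (WT) hearts after TAC at 10 weeks. Of the sham-operated hearts, 4 libraries were KO and 4 were WT, and in each of these groups 2 libraries came from mice of 10 weeks and 2 from mice of 11 weeks. TAC is taken to be transverse aortic constriction, an operation that narrows the aorta and puts the left ventricle under pressure load. Clk3 encodes a CDC-like kinase, a family known for phosphorylating the SR proteins of pre-mRNA splicing. The title names the part of Clk3 in heart hypertrophy as the question. The design of the Clk3 allele, the tissues in which it is lost, the time since TAC, the sex, the hour of collection and the part of the heart taken are in none of the labels. Whether each library is a separate animal is not said in the labels, and the spread behind every p-value may be partly technical.

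The sarcomere is the contractile unit of heart muscle, in which thin filaments are held at the Z-disc and thick filaments are held at the M-band. Titin is a giant elastic protein that reaches from the Z-disc to the M-band and sets much of the passive stiffness of the muscle. The myomesins Myom1 and Myom2 cross-link thick filaments and titin at the M-band, and obscurin-like 1 (Obsl1) binds titin and myomesin there. At the Z-disc, telethonin (Tcap) caps the N-terminal end of titin, Ldb3 (also called Cypher or ZASP) and myotilin (Myot) bind alpha-actinin and its partners, calsarcin-1 (Myoz2) tethers calcineurin, and nebulette (Nebl) is the cardiac relative of nebulin that binds thin filaments at the Z-disc.

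Each library held between 11385818 and 20369637 gene counts. Levels are given as CPM, with each library's size adjusted by its TMM factor. The targeted gene was only partly lower: Clk3 was at 50.7 to 64.9 CPM in KO TAC, 54.2 and 92.3 CPM in WT TAC, 62.8 to 67.4 CPM in KO sham and 73.2 to 96.0 CPM in WT sham. In the edgeR test Clk3 did not pass between genotypes in sham hearts (log2 fold change -0.37, adjusted p = 0.158) or after TAC (-0.34, 0.350). The library labelled WT TAC 1 had the lower Clk3 of its pair and lay within the KO TAC range. It also had 66.8 CPM of the pseudogene Gm8730, which was at 57.4 to 67.1 CPM in the 8 KO libraries and at 1.26 to 1.63 CPM in the other WT libraries. Every WT TAC result below therefore rests on 2 libraries of which 1 goes against its label. Values without that library are given for only part of these results. KO TAC 3 and KO sham 4 stood apart from their groups in the clock gene Arntl. Reads outside annotated features made up 12.3 to 14.3% of counted reads in KO TAC, 10.7 and 14.9% in WT TAC, 17.1 to 19.0% in KO sham and 14.3 to 17.6% in WT sham.

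The 10 cardiomyocyte markers were abundant in every library, with summed levels of 38502 to 48414 CPM in KO TAC, 37762 and 43200 CPM in WT TAC, 44435 to 47998 CPM in KO sham and 41567 to 46428 CPM in WT sham. Of the 14 skeletal muscle markers, the fast myosin Myh4 was at 0 in all 14 libraries, and their sum was at most 97.3 CPM. The 10 fibroblast markers summed to 1913 to 2508 CPM in KO TAC, 3481 and 4510 CPM in WT TAC, 1381 to 1556 CPM in KO sham and 1470 to 1829 CPM in WT sham, with none at 0. Atrial markers (8 genes) summed to 1644 to 2159.8 CPM in KO TAC, 2819.9 and 3396 CPM in WT TAC, 846 to 1038 CPM in KO sham and 797 to 1042 CPM in WT sham, with Sln and Bmp10 at 0 in both WT TAC libraries. The 10 macrophage markers summed to 396 to 501 CPM in KO TAC, 481 and 605 CPM in WT TAC, 269.9 to 375 CPM in KO sham and 374 to 383 CPM in WT sham, with none at 0. The fibroblast, atrial and macrophage sums were higher in every TAC library than in any sham library. The atrial markers did not all move the same way, and in each TAC group 3 of the 8 were under 1 CPM. After TAC in WT, 5 were tested in edgeR and 2 were called higher and 1 lower, against 6.91% and 5.3% of all genes. In KO hearts 2 were called higher and 0 lower, against 6.73% and 6.26%. In bulk tissue, fewer cardiomyocytes and less of a transcript per cardiomyocyte cannot be told apart, and the part of cell composition in the results below was not tested.

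Together the 9 genes held 1.44 to 1.85% of all gene counts in a library, and Ttn alone held 0.662 to 1.08%. Per kilobase of exon the order was different, because the Ttn exons span 116825 bases. Tcap, with 948 bases of exon, had the highest level per length at 917 ± 87.3 CPM per kb in KO TAC, 865 ± 28.9 in WT TAC, 1156 ± 184 in KO sham and 1120.0 ± 176 in WT sham (SD, n = 4, 2, 4 and 4). Myoz2 followed at 240.1 to 288 CPM per kb as group means. Myom1, Myom2 and Ldb3 came next at 157 to 213 CPM per kb, and in each group neighbours in this order overlapped. Ttn was below them at 64.5 to 90.6 CPM per kb, and Obsl1 was lowest at 18.6 to 19.3 CPM per kb. Nebl and Myot lay between Ttn and Obsl1, with Myot above Nebl on the group means after TAC and Nebl above Myot in both sham groups. In WT sham and KO TAC their ranges overlapped.

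**Figure D1:**
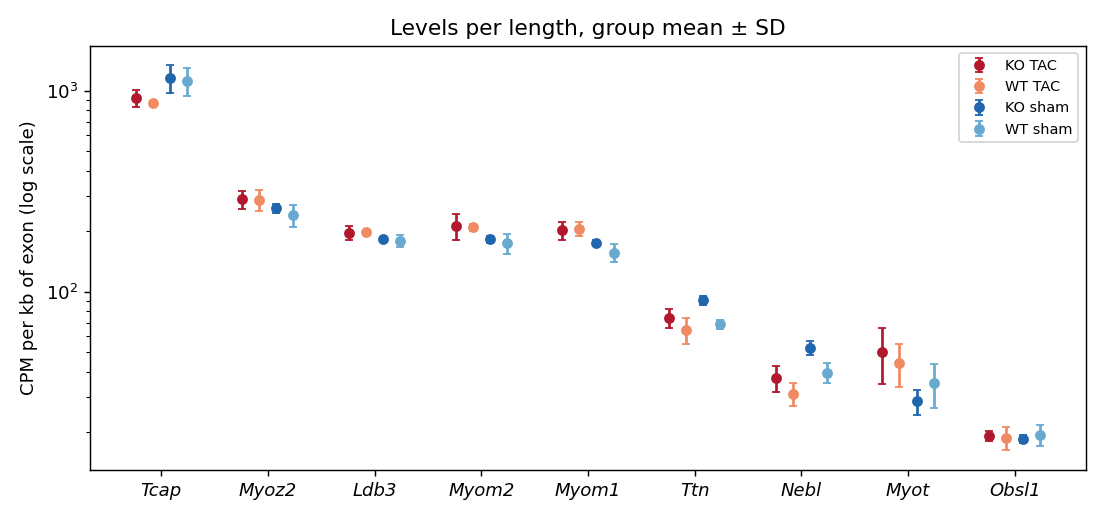
Group mean and SD of the level of each gene, in CPM per kilobase of exon on a log axis, for KO TAC, WT TAC, KO sham and WT sham (n = 4, 2, 4 and 4). Tcap is highest and Obsl1 lowest in all 4 groups, and Nebl and Myot change places between the TAC and sham groups.

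The promoters of 3 genes called below, Ttn, Nebl and Myom1, and of Myoz2 for comparison, are printed as RefSeq gives them on build GRCm38.p6, from 250 bases before to 50 bases after an annotated start. An entry was found for 6 of the 9 genes, Ttn, Obsl1, Myom1, Ldb3, Myoz2 and Nebl, with 10 windows in all. Capitals mark the MEF2 core, taken loosely as CTA and TAG with any 4 bases between them (MEF2 factors drive many muscle genes). In Nebl they mark the E-box CACGTG, a sequence that clock factors such as the Arntl protein can bind. The windows are chr2:76982498-76982797 for Ttn, chr3:123034938-123035237 for Myoz2, chr2:17526081-17526380 for Nebl, all on the minus strand, and chr17:71019307-71019606 on the plus strand for Myom1.
Ttn: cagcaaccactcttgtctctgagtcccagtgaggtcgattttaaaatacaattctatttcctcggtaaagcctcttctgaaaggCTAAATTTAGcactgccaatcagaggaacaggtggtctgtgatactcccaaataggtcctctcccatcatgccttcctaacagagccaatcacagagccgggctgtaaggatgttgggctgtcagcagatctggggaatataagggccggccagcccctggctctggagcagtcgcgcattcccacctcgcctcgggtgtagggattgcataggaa
Myoz2: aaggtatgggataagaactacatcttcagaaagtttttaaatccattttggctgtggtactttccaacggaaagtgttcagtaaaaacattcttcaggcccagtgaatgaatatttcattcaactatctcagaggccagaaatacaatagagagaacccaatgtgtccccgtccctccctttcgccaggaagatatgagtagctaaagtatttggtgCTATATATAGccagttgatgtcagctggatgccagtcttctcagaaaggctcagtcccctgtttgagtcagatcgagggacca
Nebl: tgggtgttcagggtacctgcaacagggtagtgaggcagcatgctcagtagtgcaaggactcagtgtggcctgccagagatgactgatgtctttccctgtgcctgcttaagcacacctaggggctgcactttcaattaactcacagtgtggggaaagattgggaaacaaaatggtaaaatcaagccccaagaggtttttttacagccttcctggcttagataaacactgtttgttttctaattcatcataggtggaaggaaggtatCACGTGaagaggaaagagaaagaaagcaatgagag
Myom1: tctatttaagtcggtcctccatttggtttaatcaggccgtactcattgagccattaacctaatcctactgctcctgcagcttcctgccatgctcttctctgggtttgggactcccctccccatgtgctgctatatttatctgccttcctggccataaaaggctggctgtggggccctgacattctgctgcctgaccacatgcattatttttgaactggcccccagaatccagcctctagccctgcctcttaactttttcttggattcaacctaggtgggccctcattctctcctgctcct

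The MEF2 core was searched on both strands, and its letters read the same on each. It was found in 4 of the 6 genes: Ttn, 166 bases before the start, Obsl1, 228 bases before, Myoz2, 33 bases before, and Ldb3, where 2 overlapping windows share the same match. The 4 middle bases were all A or T in Ttn and Myoz2, but held a C in Obsl1 (CTATACTTAG) and Ldb3 (CTATTCTTAG). Among all 32851 promoter windows of this length, 3.69% held the core in this loose form, or 4.23% of 27025 genes. The Nebl E-box lay 15 bases after the start in 1 of its 4 windows, and 7.15% of all windows held an E-box, or 8.09% of genes. On either strand, the M-CAT letters CATTCC were found in 2 of the 6 genes, Ttn and Nebl, against 16.6% of all genes (14.7% of windows). The GATA letters AGATAA were found in 2 of the 6, Myom1 and Nebl, against 12.7% of all genes (11.2% of windows). Nebl, with 4 windows, had more chances of a match than a gene with 1. A match describes letters in the window and is no evidence of binding. Which Nebl start is used in these hearts was not measured.

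After TAC the scaffold genes did not move as a block. In KO hearts, 1 of 9 rose against KO sham (Myot) and 2 of 9 fell (Nebl and Ttn). Over all tested genes 6.73% rose and 6.26% fell in that comparison. In WT hearts, 1 of 9 rose against WT sham (Myom1) and none fell, against 6.91% of all genes that rose and 5.3% that fell. The median log2 fold change of the 9 genes was 0.10 in KO and 0.15 in WT, against -0.0053 and -0.0023 for all tested genes. At an unadjusted p under 0.05 there were 6 of 9 in KO and 5 of 9 in WT, against 28.9% and 26.1% of all genes. DESeq2 called 3 of 9 in KO and 1 of 9 in WT, against 15.1% and 13.8% of all genes. The difference between the TAC effects was called for none of the 9 genes by edgeR, and for 0.0192% of all genes. At an unadjusted p under 0.05 there were 0 of 9, against 6.53% of all genes, and DESeq2 called 0 of 9, against 0.236%. An effect past the threshold in KO and not in WT is therefore not shown to differ between the genotypes.

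**Figure D2:**
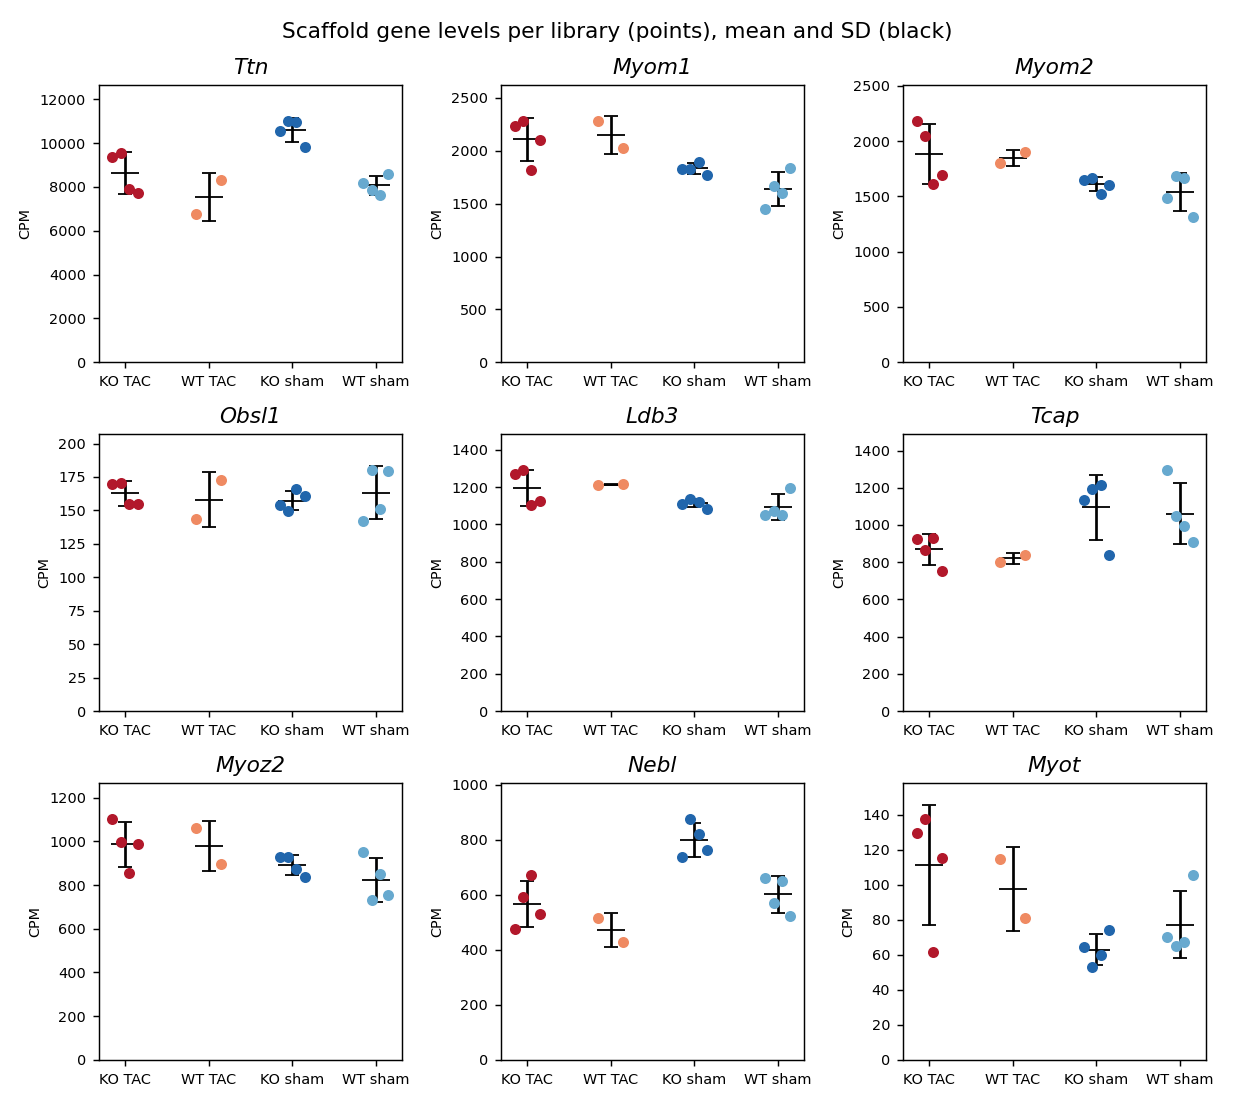
Level of each scaffold gene in CPM (linear axes from 0), with 1 point per library and the mean and SD of each group in black. Ttn and Nebl are higher in all 4 KO sham libraries than in any WT sham library, and Myot is high in 3 of 4 KO TAC libraries.

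Ttn lies on chromosome 2 at 76703980 to 76982547, minus strand, in the GENCODE M21 annotation of GRCm38. Its level was 9363, 9561, 7929.8 and 7706 CPM in KO TAC, 6755 and 8326 CPM in WT TAC, 10551, 11007, 10961 and 9818 CPM in KO sham, and 8193, 7865, 7634 and 8589.6 CPM in WT sham. The KO sham libraries were the highest of all 14, with no overlap with any other group. In KO hearts Ttn fell after TAC by 0.29 ± 0.089 on the log2 scale (SE), or 0.816-fold, with an adjusted p of 0.0430, and all 4 KO TAC libraries lay below all 4 KO sham libraries. In WT hearts the TAC fold change was -0.098 ± 0.11, adjusted p = 0.625, with overlap. Without the library labelled WT TAC 1 it was 0.045.

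The Ttn call in KO hearts was a narrow one. It was lost on leaving out KO TAC 3 (adjusted p = 0.0951), KO TAC 4 (0.116), KO sham 1 (0.0912), KO sham 2 (0.121), KO sham 3 (0.0987) or WT sham 3 (0.0549), with log2 fold changes between -0.35 and -0.24 over all 14 such fits. Among the 10-week libraries alone it was -0.27 with an adjusted p of 0.332. With the share of reads outside features as a covariate the fold change shrank to -0.055, adjusted p = 0.928. That share was lower in all 4 KO TAC libraries than in any KO sham library.

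In sham hearts Ttn was at 10585 ± 550.4 CPM in KO and 8070.4 ± 415 CPM in WT (SD, n = 4 each), a log2 fold change of 0.39 ± 0.090 or 1.31-fold. Its adjusted p of 0.0520 just missed the threshold. The same gap was seen at each age: 10551 and 11007 CPM in KO against 8193 and 7865 CPM in WT at 11 weeks, and 10961 and 9818 CPM in KO against 7634 and 8589.6 CPM in WT at 10 weeks, where the fit on 10-week libraries gave 0.36 and an adjusted p of 0.407. DESeq2 called Ttn (adjusted p = 0.00171), as did the edgeR fit on the compared groups alone (0.0347), that on coding counts (0.0494), and the fits without the library labelled WT TAC 1 (0.0361), WT TAC 2 (0.0361) or WT sham 1 (0.0424). With the share of reads outside features as a covariate the value was 0.28, adjusted p = 0.177.

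Nebl lies on the same chromosome at 17343909 to 17731464, minus strand. Nebulette transcripts were at 477, 593, 670.5 and 530.2 CPM in KO TAC, 517 and 429.9 CPM in WT TAC, 739, 877, 823 and 761 CPM in KO sham, and 663, 572, 652 and 523 CPM in WT sham. As for Ttn, the 4 KO sham libraries were the highest of all. In KO hearts Nebl fell after TAC by 0.49 ± 0.11 on the log2 scale, or 0.710-fold, adjusted p = 0.00938, with no overlap. This was the most stable of the 4 calls: it held in all 14 fits that left out 1 library, with values between -0.58 and -0.42. It was lost among 10-week libraries alone (-0.48, adjusted p = 0.135), with Arntl as a covariate (-0.35, 0.130) and with the share of reads outside features as a covariate (-0.71, 0.260). In WT hearts the fold change was -0.35 ± 0.13, adjusted p = 0.102, also with no overlap. It was -0.49 without the library labelled WT TAC 1 and -0.22 without WT TAC 2.

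In sham hearts Nebl was at 800 ± 62.3 CPM in KO and 602 ± 66.8 CPM in WT (SD, n = 4 each), 1.33-fold, with an adjusted p of 0.0724 in edgeR and 0.0152 in DESeq2. The groups did not overlap. The edgeR fit without WT sham 1 called it (0.0442), as did the fit with Arntl as a covariate (0.0366). None of the 9 genes passed in edgeR between the genotypes in sham hearts, where 2 of 9 had an unadjusted p under 0.05 and DESeq2 called the same pair, Ttn and Nebl. Over all genes edgeR called 0.575% higher and 0.313% lower in KO sham, 18% had an unadjusted p under 0.05, and DESeq2 called 5.19%. On the log2 scale the other members were at 0.16 (Myom1), 0.12 (Myoz2), 0.065 (Myom2), 0.046 (Tcap), 0.028 (Ldb3), -0.055 (Obsl1) and -0.29 (Myot).

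**Figure D3:**
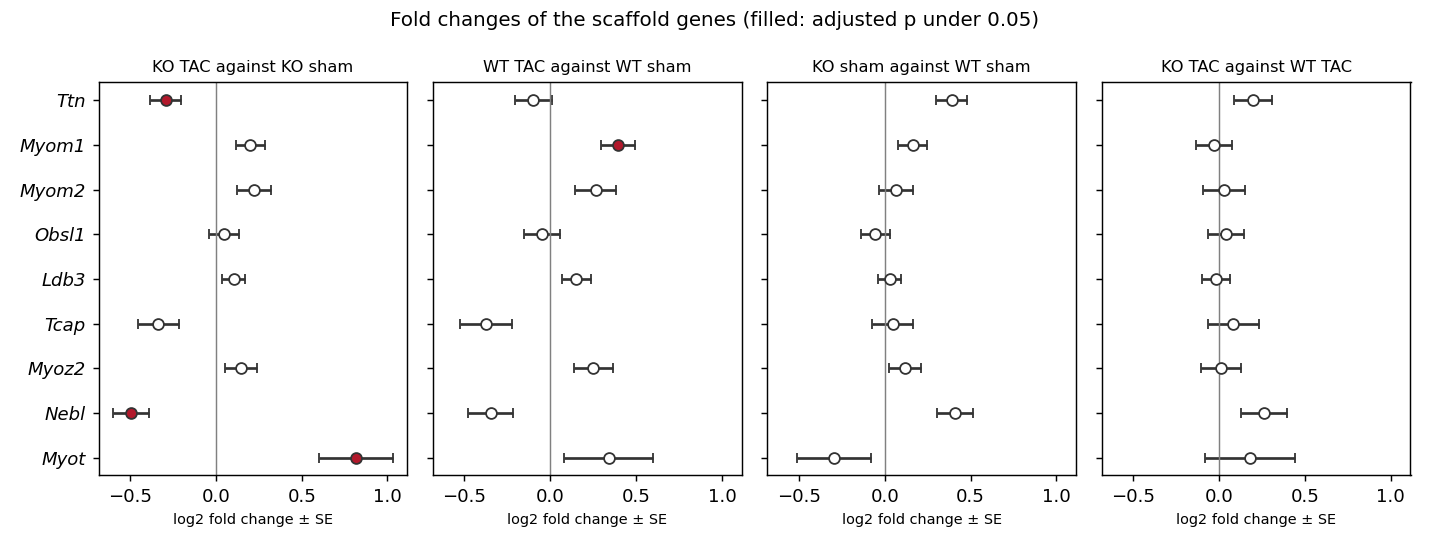
Log2 fold change and SE of the 9 scaffold genes in 4 comparisons from 1 edgeR fit, filled where the adjusted p was under 0.05. Filled points are Ttn (-0.29), Nebl (-0.49) and Myot (0.82) in KO hearts after TAC and Myom1 (0.39) in WT hearts after TAC.

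Of the M-band genes, Myom1 (chromosome 17, 71002633 to 71126856, plus strand) was at 2231, 2280.5, 1819.5 and 2102 CPM in KO TAC, 2281 and 2026 CPM in WT TAC, 1832, 1833, 1899 and 1771 CPM in KO sham, and 1445, 1669.8, 1603 and 1835 CPM in WT sham. Both WT TAC libraries lay above all WT sham libraries. Myom1 rose after TAC in WT by 0.39 ± 0.10 on the log2 scale, 1.31-fold, adjusted p = 0.0188. The call was lost without the library labelled WT TAC 1 (0.31, adjusted p = 0.239) and without WT sham 3 (0.37, 0.0527). It was also lost among 10-week libraries (0.32, 0.165), when only the compared groups were fitted (0.39, 0.0861), with Arntl as a covariate (0.31, 0.232) and with the share of reads outside features as a covariate (0.32, 0.214). In KO hearts the value was 0.20 ± 0.084, adjusted p = 0.126, with KO TAC 3 inside the sham range. Without KO TAC 3 it was 0.26 and passed (0.0463). The exons of Myom1 overlap those of Myl12a on the other strand, which had 6439 to 11714 counts per library. No source used here gives the strand setting of the counting, so reads in the shared stretch are uncertain. Ambiguous reads were at 0% for Myom1 in every library, and what this means for the shared stretch was not tested.

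Myom2 (chromosome 8, 15057653 to 15133541, plus strand) was at 2181, 2047, 1614 and 1689 CPM in KO TAC, 1798 and 1898 CPM in WT TAC, 1650.4, 1669.8, 1520.4 and 1602 CPM in KO sham, and 1489.5, 1686, 1665 and 1317 CPM in WT sham. Neither TAC difference passed: 0.23 ± 0.099 in KO (adjusted p = 0.144, with overlap) and 0.26 ± 0.12 in WT (0.175, no overlap). The log2 ratio of Myom2 to Myom1 within a library was -0.17 ± 0.12 in KO TAC, -0.22 ± 0.18 in WT TAC, -0.19 ± 0.089 in KO sham and -0.092 ± 0.26 in WT sham (SD).

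Obsl1 (chromosome 1, 75479310 to 75506452, minus strand) was the flattest in its group means: 163 ± 9.01 CPM in KO TAC, 158 ± 20.8 in WT TAC, 157 ± 7.23 in KO sham and 163 ± 19.5 in WT sham (SD, n = 4, 2, 4 and 4). Single libraries ran between 142 and 180.3 CPM, and all groups overlapped. Its log2 fold changes lay between -0.055 and 0.048 in the 4 comparisons of groups.

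At the Z-disc, Ldb3 (chromosome 14, 34526603 to 34588682, minus strand) varied least of the 9 genes, with an SD of 0.098 in log2 CPM over the 14 libraries. It was at 1269.5, 1292, 1105 and 1124 CPM in KO TAC, 1212 and 1216 CPM in WT TAC, 1112, 1137, 1123 and 1084 CPM in KO sham, and 1052, 1069.7, 1049.8 and 1198 CPM in WT sham. The TAC values were 0.10 ± 0.068 in KO (adjusted p = 0.322) and 0.15 ± 0.082 in WT (0.259).

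Myoz2 (chromosome 3, 123006206 to 123035015, minus strand) was at 1104, 996, 857 and 987 CPM in KO TAC, 1059.8 and 897 CPM in WT TAC, 929, 927, 874 and 835 CPM in KO sham, and 953, 733, 849 and 753 CPM in WT sham. All groups overlapped. The TAC values were 0.15 ± 0.094 in KO (adjusted p = 0.323) and 0.25 ± 0.11 in WT (0.174). Without the library labelled WT TAC 1 the WT value was 0.13.

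Tcap (chromosome 11, 98383811 to 98384953, plus strand) was at 924, 868, 931 and 752 CPM in KO TAC, 801 and 839 CPM in WT TAC, 1132, 1194, 1217 and 839.9 CPM in KO sham, and 1296, 1047, 996 and 908 CPM in WT sham. Apart from KO sham 4, every KO sham library lay above every KO TAC library, and both WT TAC libraries lay below all WT sham libraries. The fold changes were -0.33 ± 0.12 in KO (adjusted p = 0.0793) and -0.37 ± 0.15 in WT (0.123), so neither passed. In KO the call was made without KO sham 4 (-0.44, 0.0155) and without WT sham 1 (-0.33, 0.0459).

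Myot, on chromosome 18, had the widest spread of the 9 genes, with an SD of 0.46 in log2 CPM. It was at 129.8, 138, 61.6 and 115 CPM in KO TAC, 115 and 80.9 CPM in WT TAC, 64.5, 53.2, 59.7 and 74.4 CPM in KO sham, and 70.2, 65.3, 67.4 and 106 CPM in WT sham. Of the KO TAC libraries 3 lay above all KO sham libraries, and KO TAC 3 lay inside the sham range. Myot rose after TAC in KO hearts by 0.82 ± 0.22 on the log2 scale, 1.76-fold, adjusted p = 0.0244. The call was lost without KO TAC 1 (0.73, 0.0642), KO TAC 2 (0.69, 0.0724), KO TAC 4 (0.80, 0.0603), KO sham 1 (0.83, 0.0588), KO sham 2 (0.74, 0.0826) or KO sham 3 (0.79, 0.0594), and among 10-week libraries (0.73, 0.263). In WT hearts the value was 0.34 ± 0.26, adjusted p = 0.443. It was 0.068 without the library labelled WT TAC 1 and 0.57 without WT TAC 2, so the WT value moved with each library.

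The levels were also set beside those of Arntl, a core activator of the circadian clock. Arntl was at 23.2, 23.2, 9.02 and 22.1 CPM in KO TAC, 18.2 and 23.7 CPM in WT TAC, 4.405, 4.82, 5.50 and 24.3 CPM in KO sham, and 4.53, 5.80, 6.79 and 9.38 CPM in WT sham. KO sham 4, with sham surgery and high Arntl, had the lowest Tcap of its group and the highest Myot, though below KO TAC 1, 2 and 4, and KO TAC 3, with low Arntl, had the highest Tcap and the lowest Myot of its group. WT sham 4, the WT sham library with the most Arntl, had the lowest Tcap and the highest Myot of its group. The WT TAC pair went the other way. WT TAC 2 had more Arntl than WT TAC 1, with higher Tcap (839 against 801 CPM) and lower Myot (80.9 against 115 CPM). Tcap in KO TAC 3 (931 CPM) was also close to that in KO TAC 1 (924 CPM), which had high Arntl. Of 14 clock genes, edgeR called none higher and 5 lower after TAC in KO, against 6.73% and 6.26% of all genes. It called 3 higher and 8 lower when KO TAC 3 and KO sham 4 were left out. Both libraries were picked by their Arntl, which is 1 of the 14, so the larger counts are no separate evidence. In WT edgeR called 1 higher and 7 lower, against 6.91% and 5.3% of all genes. That count rests on 2 WT TAC libraries, of which 1 goes against its label. With the log2 level of Arntl as a covariate, the TAC value of Tcap was -0.056 in KO and -0.019 in WT, that of Myot was 0.38 in KO and -0.16 in WT, and that of Nebl was -0.35 in KO and -0.16 in WT, with no adjusted p under 0.05. That of Ttn was -0.30 in KO (adjusted p = 0.202), against -0.29 without the covariate.

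KO TAC 3 and KO sham 4 were then left out, a choice made after seeing the data. Without them edgeR again called 3 of 9 genes after TAC in KO, but not the same 3. The share of all genes called in that fit is not given here. Myot rose by 1.11 on the log2 scale (adjusted p = 0.00136), Nebl fell by 0.61 (0.00378) and Tcap fell by 0.48 (0.0153), while Ttn was at -0.29 and did not pass (0.0850). KO TAC 3 had the lowest Myot and the highest Tcap and Nebl of its group. KO sham 4 had the highest Myot and the lowest Tcap of its group. Leaving them out therefore widens these gaps by itself, and the larger values are no separate evidence. Apart from KO TAC 3 and KO sham 4, every TAC library had more Arntl than every sham library. The labels give no hour of collection, so surgery and clock state cannot be told apart in the other 12 libraries.

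**Figure D4:**
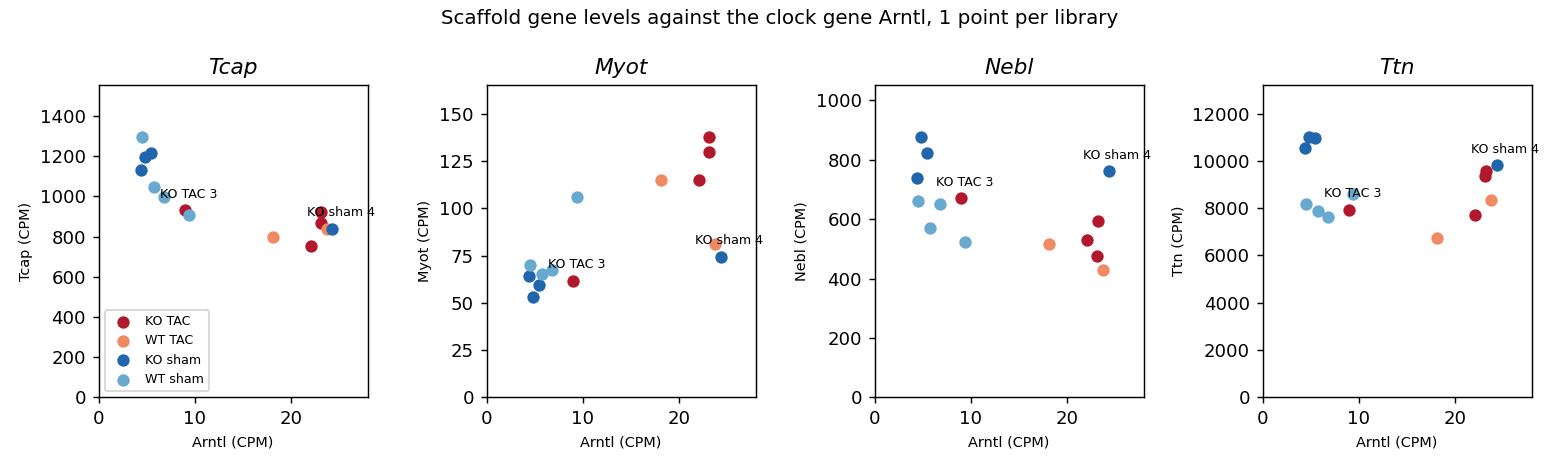
Level of Tcap, Myot, Nebl and Ttn against that of Arntl, all in CPM on linear axes, with 1 point per library and colours for the 4 groups. KO sham 4, with 24.3 CPM of Arntl, lies within the range of the TAC libraries for Tcap (839.9 CPM) and with the KO sham libraries for Nebl (761 CPM), and KO TAC 3, with 9.02 CPM of Arntl, lies within the range of the KO sham libraries for Myot (61.6 CPM).

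Ratios between genes within a library do not depend on its scaling. Of 5 ratios in 4 comparisons (20 exact two-sided permutation tests), none had an adjusted p under 0.05 over the 20. The 10 of these that hold the 2 WT TAC libraries cannot go below an exact permutation p of 0.0667. Those of 4 against 4 cannot go below 0.0286. With adjustment over the 20, none of the tests could pass, so this outcome was fixed by the group sizes. The log2 ratio of Nebl to Ldb3 was -1.09 ± 0.28 in KO TAC, -1.36 ± 0.19 in WT TAC, -0.48 ± 0.091 in KO sham and -0.86 ± 0.25 in WT sham (SD, n = 4, 2, 4 and 4). KO sham libraries were the highest and overlapped neither KO TAC nor WT sham (exact permutation p = 0.0286 in each, the smallest that 4 against 4 allows, adjusted 0.143). The log2 ratio of Obsl1 to Ttn was -5.73 ± 0.081 in KO TAC, -5.57 ± 0.023 in WT TAC, -6.07 ± 0.11 in KO sham and -5.63 ± 0.17 in WT sham. Here too KO sham stood apart from KO TAC and from WT sham (exact permutation p = 0.0286 in each, adjusted 0.143). Both of these comparisons use the same KO sham libraries. The ratio of Tcap to Ttn, the cap and its ligand, was -3.31 ± 0.16 in KO TAC, -3.19 ± 0.17 in WT TAC, -3.29 ± 0.18 in KO sham and -2.94 ± 0.24 in WT sham, with adjusted p of 0.317 or more by the exact permutation test.

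The files count reads in coding and in untranslated (UTR) parts separately, which gives a second readout per gene. UTR reads made up 50.02 to 59.9% of Ldb3 reads and 55.2 to 60.2% of Nebl reads in single libraries, but only 2.33 to 3.47% of Myoz2 reads. For Ttn the UTR share was 10.1, 7.19, 7.82 and 9.25% in KO TAC, 10.1 and 11.4% in WT TAC, 7.37, 6.88, 7.57 and 7.45% in KO sham, and 11.0, 8.70, 8.20 and 8.81% in WT sham. All 4 KO sham libraries lay below all 4 WT sham libraries. The log2 ratio of UTR to coding reads of Ttn was lower by 0.35 ± 0.11 in KO sham than in WT sham (limma, adjusted p = 0.565), lower by 0.36 ± 0.13 in KO TAC than in WT TAC (adjusted p = 1.00), and higher by 0.24 ± 0.11 in KO TAC than in KO sham (adjusted p = 0.480).

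Obsl1 had a UTR share of 3.62 ± 0.65% in KO TAC, 3.59 ± 0.69% in WT TAC, 4.51 ± 0.36% in KO sham and 4.62 ± 0.41% in WT sham (SD, n = 4, 2, 4 and 4). Its log2 ratio differed by -0.34 ± 0.14 after TAC in KO (adjusted p = 0.427) and by -0.39 ± 0.18 in WT (0.960). None of the 9 genes passed the limma test in any of the 5 comparisons. At an unadjusted p under 0.05 there were 2 of 9 after TAC in KO (9.62% of all genes), 1 after TAC in WT (4.85%), 1 in KO sham against WT sham (4.44%), 1 in KO TAC against WT TAC (3.68%) and 0 in the interaction (2.15%). Few genes passed at all: of 9640 genes tested for this ratio, 0.0104% were called after TAC in KO, 0.0207% after TAC in WT, 0.0207% between genotypes in sham hearts, and 0% in KO TAC against WT TAC and in the interaction.

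Larger TAC values were found among other genes of the same structures. These lists too were chosen with earlier results of these data known. Of 26 further Z-disc genes, 24 were tested. In KO hearts 8 rose and none fell after TAC, with a median log2 fold change of 0.19. Over all genes 6.73% rose and 6.26% fell there. Synpo2l (an actin-bundling Z-disc protein) rose 1.99-fold, Flnc (filamin C, an actin cross-linker) 1.57-fold, Pdlim1 (a PDZ and LIM protein that binds alpha-actinin) 1.39-fold and Sorbs2 1.30-fold. The other 4 were Des (1.29-fold), Actn2 (alpha-actinin-2, 1.22-fold), Bag3 (1.21-fold) and Capzb (1.16-fold). In WT hearts 9 rose and 1 fell, with a median of 0.27, against 6.91% and 5.3% of all genes that rose and fell. Synpo2l rose 3.51-fold, Flnc 1.96-fold, Des (desmin, the intermediate filament that links Z-discs) 1.60-fold and Sorbs2 1.57-fold. The others that rose were Lmcd1 (1.40-fold), Csrp3 (1.37-fold), Pdlim5 (1.36-fold), Pdlim1 (1.35-fold) and Cryab (1.27-fold), and Fblim1 fell by 0.48 on the log2 scale. Leaving out the library labelled WT TAC 1 leaves 1 WT TAC library. The log2 fold changes in WT were then 1.43 for Synpo2l, 0.94 for Flnc, 0.53 for Des and 0.56 for Sorbs2. For the other Z-disc genes called in WT such values are not given here, so how far their calls rest on that library is not shown. Between genotypes in sham hearts none of the 24 passed in edgeR, against 0.575% of all genes higher and 0.313% lower. There 2 had an unadjusted p under 0.05 in edgeR (18% of all genes) and DESeq2 called 0 (5.19%). Between genotypes after TAC none of the 24 passed in edgeR, against 0.377% higher and 1.11% lower. There 5 had an unadjusted p under 0.05 in edgeR (14.8% of all genes) and DESeq2 called 3 (3.28%).

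Of 21 further M-band and titin-associated genes, 2 rose and 2 fell after TAC in KO hearts, against 6.73% and 6.26% of all genes. Ankrd1, an ankyrin-repeat protein that binds the titin N2A region, rose 1.97-fold and Sqstm1, an autophagy adaptor recruited by the titin kinase complex, 1.195-fold. Rbm20, the splicing regulator that sets titin isoforms, fell by 0.35 on the log2 scale and Mylk3, cardiac myosin light chain kinase, by 0.36. In WT hearts 5 rose and 2 fell, against 6.91% and 5.3% of all genes. Ankrd2 rose 5.43-fold, Ankrd1 3.22-fold, Ankrd23 2.58-fold, Fhl1 2.43-fold and Sqstm1 1.24-fold, and Rbm20 fell by 0.38 and Mylk3 by 0.51. Without the library labelled WT TAC 1, only Ankrd1 passed in WT (1.70 on the log2 scale, adjusted p = 6.38e-05); Ankrd2 was then at 0.68, Ankrd23 at 1.08, Fhl1 at 0.51, Rbm20 at -0.22 and Mylk3 at -0.55. The median over the 21 genes was -0.0049 in KO and 0.0088 in WT.

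**Figure D5:**
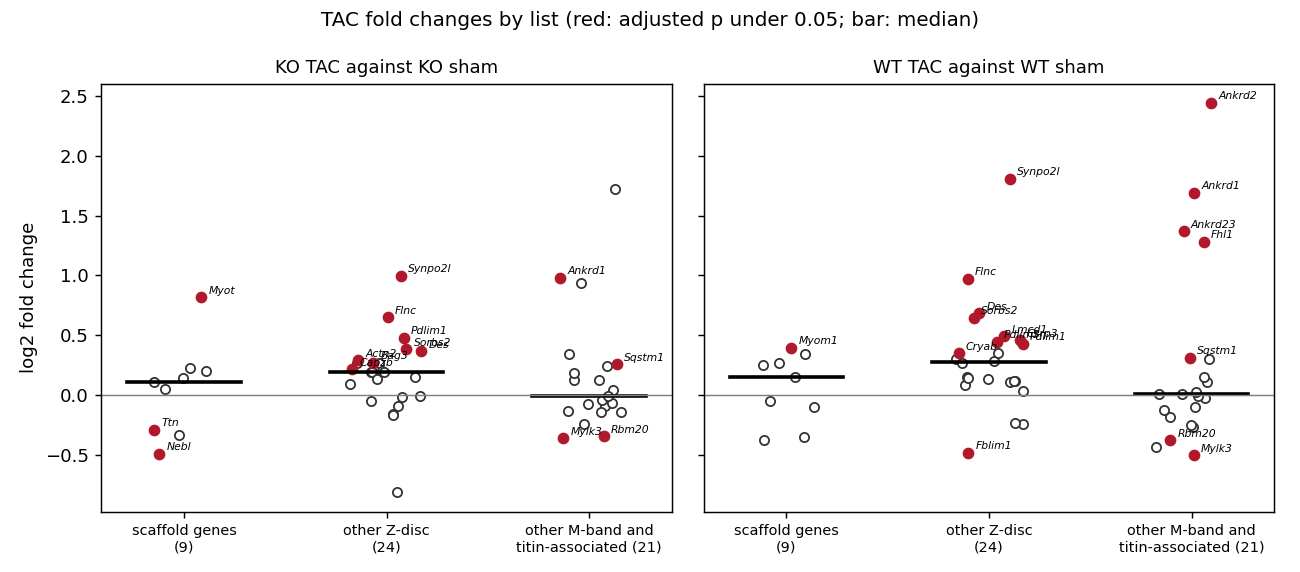
Log2 TAC fold change of the 9 scaffold genes, 24 other Z-disc genes and 21 other M-band and titin-associated genes in KO and in WT hearts, red where the adjusted p was under 0.05, with a bar at each median. The scaffold genes lie between -0.49 and 0.82, whereas Ankrd2 reaches 2.44 and Synpo2l 1.81 in WT hearts.

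Between genotypes after TAC, none of the 9 scaffold genes passed in edgeR in KO TAC against WT TAC, against 0.377% of all genes called higher and 1.11% lower. At an unadjusted p under 0.05 there were 0 of 9, against 14.8% of all genes, and DESeq2 called 0 of 9, against 3.28%. The largest values were 0.26 ± 0.13 for Nebl (adjusted p = 0.375), 0.20 ± 0.11 for Ttn (0.441) and 0.18 ± 0.26 for Myot (0.823), and the other 6 were at 0.084 (Tcap), 0.040 (Obsl1), 0.027 (Myom2), 0.010 (Myoz2), -0.019 (Ldb3) and -0.031 (Myom1). Without the library labelled WT TAC 1 the values were 0.40 for Nebl, 0.054 for Ttn, 0.45 for Myot and 0.14 for Myoz2, and again none passed. Among the titin-associated genes Fhl1, a LIM protein that binds titin, was at 192 ± 23.4 CPM in KO TAC and 390 ± 228 CPM in WT TAC (log2 fold change -1.02 ± 0.22, adjusted p = 0.0329). Ankrd1 was at 2557 ± 319 CPM in KO TAC and 3941 ± 46.0 CPM in WT TAC (-0.62 ± 0.14, adjusted p = 0.0342). Without the library labelled WT TAC 1 neither passed: Fhl1 was at -0.25 (adjusted p = 0.532) and Ankrd1 at -0.64 (0.168). Without KO TAC 3 and KO sham 4, 1 of these 21 genes and 1 of the 24 Z-disc genes were called lower. The share of all genes called in that fit is not given here. As interactions the differences did not pass either (adjusted p = 0.501 for Fhl1 and 0.321 for Ankrd1).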

How the data were processed

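RNA sequencing counts of 14 mouse heart libraries were used: 4 KO TAC, 2 WT TAC, 4 KO sham and 4 WT sham. Per the labels' protocols, poly(A) RNA was selected and strand-specific libraries were made. Tools and builds named in the submitters' processing notes are STAR 2.4.2a, bcl2fastq 2.17.1.14, Picard 2.10.3, mm10 and GRCm38. The deposited tables hold raw read counts for each gene, split per the file headers into coding and UTR parts. No source used here gives the counter's version, its annotation or its strand setting. Reads in no feature (15.3% ± 2.42 of counted reads, SD, n = 14) and ambiguous reads (1.52% ± 0.048) were left out.

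Of 51912 gene identifiers, 51719 were found in GENCODE M21. Genes were filtered by filterByExpr (minimum count 10), scaled by TMM and tested in edgeR 4.0.16 (quasi-likelihood test, R 4.3.3), with all 14 libraries in 1 fit, 1 coefficient per group and Benjamini-Hochberg adjustment over 15651 genes at 0.05. The biological coefficient of variation was 11.8%. Levels are CPM on TMM-scaled libraries. The log2 ratio of UTR to coding counts (0.5 added to each, mean of at least 20 counts in each part) was tested with limma 3.58.1 over 9640 genes. Ratios between genes were tested by exact permutation. DESeq2 1.42.0 was an alternative. The statistics were tested on simulated data.

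All 9 genes are named in every comparison of groups, and from each other list up to 4 genes of smallest p in a comparison; further genes of these lists are named because they passed. The 9 genes and the lists were chosen with earlier results of these data known, so no list is independent evidence. Replicates are numbered by deposit order, which pairs no samples.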

Additional observations from a re-analysis of the deposited data

Results flagged for a closer look

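Of 60 groups of 4 libraries scanned, 5 held a library far from the other 3, against about 1 in 20 groups by chance. Arntl was at 9.02 CPM in KO TAC 3, where the other KO TAC libraries were at 22.1 to 23.2 CPM. Arntl was at 24.3 CPM in KO sham 4, where the other KO sham libraries were at 4.405 to 5.50 CPM. Myot was at 106 CPM in WT sham 4, where the others of its group were at 65.3 to 70.2 CPM. In the same library Ldb3 was at 1198 CPM, against 1049.8 to 1069.7 CPM in the others. The UTR share of Myom2 reads was 13.5% in WT sham 1, against 9.48 to 9.95% in the others, and the UTR share of all reads in that library was 36.2%, against 32.8 to 34.4% in the other 13 libraries.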

How the results depend on the processing

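The count of scaffold genes called was the most dependent on settings. After TAC in KO, 3 were called, 4 with no low-count filter (Tcap added), and 0 among 10-week libraries, with Arntl as a covariate, or with the share of reads outside features as a covariate (the share covariate). After TAC in WT, 1 gene was called; 3 were called with no low-count filter (Nebl and Tcap added), and 0 when only the compared groups were fitted, among 10-week libraries, with Arntl as a covariate, or with the share covariate. In KO sham against WT sham 0 were called, but 2 by DESeq2, with no filter and with the Arntl covariate, and 1 in the fits of the compared groups, of coding counts and with robust estimation. Leaving out 1 library gave 1 to 4 genes after TAC in KO, 0 to 1 in WT and 0 to 2 in KO sham against WT sham, and 0 in KO TAC against WT TAC and in the interaction. The 10-week fits hold 2 libraries in each sham group. The share of all genes called in each of these fits is not given here. The counts therefore do not separate a change in these genes from a fit that calls fewer or more genes. The share covariate, the robust fit and the removal of KO TAC 3 and KO sham 4 were chosen after seeing the data.

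The following changes of sign concern values that passed in no fit of their comparison. After TAC in KO, Obsl1 was -0.0054 at 10 weeks and -0.036 with the Arntl covariate. After TAC in WT, Myot was -0.16 with the Arntl covariate and Ttn 0.049 with the share covariate. In KO sham against WT sham, Ldb3 was -0.027 at 10 weeks and Tcap -0.057 with the share covariate. In KO TAC against WT TAC, Ldb3 was 0.0089 on coding counts, Myoz2 -0.0060 with the share covariate, and Myom1 and Ldb3 0.031 and 0.015 without KO TAC 3 and KO sham 4. In the interaction, Ldb3 was 0.0087 and Tcap -0.027 at 10 weeks, Tcap -0.037 with the Arntl covariate, and Myom2 and Tcap 0.037 and -0.095 without those libraries. At 10 weeks the log2 ratio of Tcap to Ttn was 0.047 after TAC in KO and that of Myot to Myoz2 -0.0965 after TAC in WT. The causes were not tested.

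Leaving out 1 library turned the sign of 25 values, none of which had passed a test, with these lowest and highest log2 values. For fold changes after TAC in WT these were Ttn -0.25 to 0.045, Obsl1 -0.19 to 0.081. For fold changes in KO sham against WT sham these were Myom2 -0.015 to 0.11, Ldb3 -0.0014 to 0.064, Tcap -0.034 to 0.16. For fold changes in KO TAC against WT TAC these were Obsl1 -0.088 to 0.18, Myom1 -0.12 to 0.058, Myom2 -0.051 to 0.091, Ldb3 -0.058 to 0.015, Myoz2 -0.11 to 0.14, Myot -0.052 to 0.45. For fold changes in the interaction these were Obsl1 -0.031 to 0.24, Myom2 -0.12 to 0.038, Tcap -0.073 to 0.11, Myoz2 -0.22 to 0.020. For UTR to coding ratios these were KO sham against WT sham for Obsl1 -0.096 to 0.014, KO TAC against WT TAC for Obsl1 -0.19 to 0.21, interaction for Ttn -0.12 to 0.079, interaction for Obsl1 -0.16 to 0.24. For ratios between genes these were Myom2 to Myom1 in KO TAC against KO sham -0.027 to 0.067, Myom2 to Myom1 in KO TAC against WT TAC -0.075 to 0.17, Tcap to Ttn in KO TAC against KO sham -0.11 to 0.023, Obsl1 to Ttn in WT TAC against WT sham -0.012 to 0.12, Myot to Myoz2 in WT TAC against WT sham -0.037 to 0.30, Myot to Myoz2 in KO TAC against WT TAC -0.0026 to 0.33.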

Other observations

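The genes with the profile most like that of a scaffold gene over the 14 libraries were found from the root mean square difference in centred log2 CPM. For Ttn they were Macf1 (0.081), the gene of a giant linker of actin and microtubules, and Herc1 (0.085), a giant ubiquitin ligase. Their exons span 31402 and 27464 bases. The 50 genes nearest to Ttn had a median exon length of 14724 bases, against 4114 bases for the tested genes with a length, and the corresponding median for the other 8 scaffold genes ran between 2511 (Myoz2) and 6986 (Nebl). For Nebl the nearest genes were Hook1 (0.067) and Senp7 (0.097), for Myom1 Usp28 (0.070) and Myo18b (0.076), for Myom2 Clip1 (0.094) and Fam13a (0.10), for Obsl1 N4bp1 (0.053) and Pex5 (0.054), for Ldb3 Noc2l (0.061) and Eef2 (0.064), for Myoz2 Park7 (0.069) and Klhl31 (0.079), for Tcap Gm20712 (0.088) and 9430038I01Rik (0.12), and for Myot Pde8a (0.20) and Grrp1 (0.20). Among the scaffold genes the closest pairs were Obsl1 with Ldb3 (0.11) and Myom1 with Ldb3 (0.12). The lowest differences go with genes of small spread, and all genes share the same libraries, so these are descriptions without a test.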
